A study of Homo sapiens with 18 samples.

Results

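This account sets the 2 RNA-seq libraries of HEK293T cells described as 293T_1_20151203 and UBR7_KO_1_20151203 against the 2 described as 293T_RNA_101515 and 293_UBR7_KO_RNA_101515, and asks which genes and pathways differed between these codes alike in both genotypes present. Read as dates, the codes lie in December and October of the same year, and they are called the December code and the October code here. The labels do not say whether they date the culture, the RNA extraction or the library. The 4 libraries were chosen by these codes, out of 18 samples in the series and 6 RNA-seq libraries. HEK293T is an established human embryonic kidney cell line that expresses the SV40 large T antigen. At each code there is 1 library of UBR7KO1, a CRISPR-Cas9 knockout line of UBR7, and 1 library of the parental line, and the labels state no other treatment, growth time or passage for either code. UBR7 is a UBR box protein that the series title describes as a histone H3 chaperone. The remaining RNA-seq libraries, 1 of parental cells and 1 of the line UBR7KO2, carry no such code.

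Pathways that follow the state of a culture are well known from other work. In the integrated stress response, set off by amino acid shortage among other stresses, the transcription factor ATF4 raises genes of amino acid synthesis and transport. Immediate early genes such as FOS answer serum and growth factors within minutes, and the heat shock genes, which encode chaperones, answer unfolded protein. Short RNAs made by RNA polymerase III and histone mRNAs differ from most mRNAs in that they carry no poly(A) tail.

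The 4 libraries held 22153291 (parental) and 25487348 (UBR7KO1) reads at the December code, and 27418953 (parental) and 26395544 (UBR7KO1) reads at the October code. Levels are CPM, the reads of a gene scaled to the total of its library, and in all pairs of values below the parental library comes first and the UBR7KO1 library second. Genes under 1 CPM numbered 798 and 693 at the December code, against 223 and 340 at the October code. Of 14177 genes listed, the 14059 above 1 CPM in at least 2 of the 4 libraries were tested. Together the 4 transcripts that each took more than 1% of the reads of a library made up 27.8% and 25.2% at the December code, against 25.5% and 23.7% at the October code. The mitochondrial 16S rRNA MT-RNR2 stood at 180292 and 168706 CPM at the December code, against 132336 and 119028 CPM at the October code, and did not pass the test (limma adjusted p = 0.0507 on CPM and 0.0584 after TMM scaling). The 12S rRNA MT-RNR1 stood at 26230 and 42266 CPM at the December code, against 38274 and 38769 CPM at the October code, lower in parental and higher in UBR7KO1 cells, and did not pass either (limma adjusted p = 0.375). The transcript CTD-2328D6.1, classed as a pseudogene, stood at 54669 and 23483 CPM at the December code, against 61289 and 57728 CPM at the October code, with the UBR7KO1 library of the December code apart from the others. CTD-2328D6.1 was called lower on CPM only (limma adjusted p = 0.0202 on CPM and 0.0887 after TMM scaling). Its log2 change was −0.16 in parental and −1.30 in UBR7KO1 cells. A share of CPM is lost or gained when such RNAs change, so results are also given after scaling by TMM, a method that sets the bulk of genes equal between libraries. The median log2 change of all tested genes was −0.16 on CPM and −0.02 after TMM scaling, so a gene's CPM change is best read against −0.16.

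The targeted gene was read first. UBR7 (ENSG00000012963, chromosome 14, 93673401 to 93695561 as listed, on a build other than GRCh38) stood at 62.2 and 26.3 CPM at the December code, against 55.0 and 27.0 CPM at the October code. The UBR7KO1 library was lower than the parental library at both codes, and the difference between codes was small (log2 change 0.07, SE 0.13, limma adjusted p = 0.702). UBR7 therefore did not pass the test between the codes. Within the lines the change was 0.17 in parental and −0.04 in UBR7KO1 cells. Fits without the parental library of the December code (−0.30) and without the UBR7KO1 library of the October code (−0.14) gave negative values. Those fits put the uncoded UBR7KO2 library, at 64.5 CPM, in the same block as UBR7KO1, so these values are not changes within a line.

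Many genes differed between the codes in the same way in both genotypes. With genotype as a block, which compares each line with itself, 5870 of 14059 genes (41.8%) passed a limma adjusted p under 0.05. Of these, 1732 (12.3%) were higher and 4138 (29.4%) were lower at the December code. After TMM scaling the split was even, with 2856 genes higher (20.3%) and 2845 lower (20.2%). All 1732 higher calls and 2845 of the 4138 lower calls were called the same way under both scalings, and 0 genes were called in opposite directions. Genes said below to rise or fall were called under both scalings unless stated. Counts of called list members are to be read against the shares of all tested genes, 12.3% higher and 29.4% lower on CPM. Without the block 925 genes were higher and 2408 lower.

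The change was tracked separately in each line. The log2 change in parental cells and that in UBR7KO1 cells, which share no library, had a Pearson r of 0.81 and a Spearman rho of 0.77 across the 14059 genes. These are descriptions across genes, which are not independent replicates. All 5870 called genes had the same sign in both lines, a property that a blocked test with 1 library per line and code favours. A change of 2-fold or more in both lines was seen in 84 genes (0.597%) that were higher and 409 genes (2.91%) that were lower at the December code, and in 0 genes in opposite directions. Past 2-fold within 1 line, there were 201 higher and 1109 lower genes in parental cells and 145 higher and 520 lower genes in UBR7KO1 cells, so the parental line had the greater number of large falls. The median absolute difference between the 2 lines' changes was 0.21, against a median absolute change of 0.32.

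**Figure D1:**
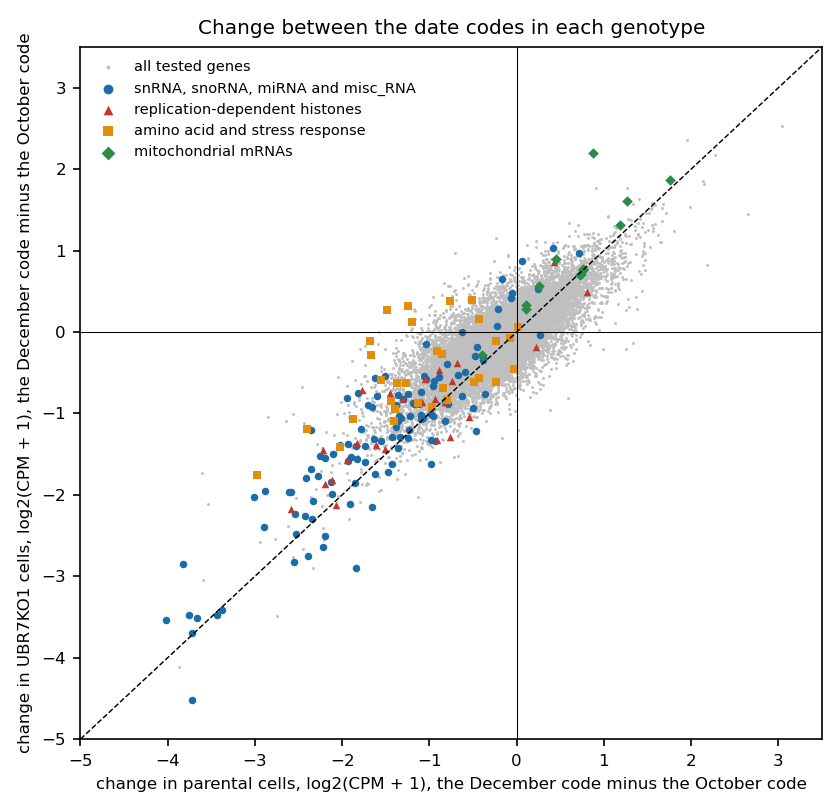
Each point is 1 tested gene, with its log2(CPM + 1) change (the December code minus the October code) in parental cells on the x axis and in UBR7KO1 cells on the y axis. The dashed line marks equal change. Points follow that line (Pearson r 0.81), small RNAs and replication-dependent histone genes reach furthest down it, and several stress response genes lie above it, with a smaller fall in UBR7KO1 cells.

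The spread behind these tests is thin, since each line has 1 library per code and the fit has 1 residual degree of freedom per gene before limma shares the spread across genes. In fits that leave out 1 coded library and draw the spread from the 5 remaining RNA libraries, 55 of the 1732 higher calls were kept without the parental library of the December code, 123 without the UBR7KO1 library of that code, 128 without the parental library of the October code and 354 without the UBR7KO1 library of that code. In the same order, 165, 416, 292 and 908 of the 4138 lower calls were kept. Of the smaller counts in the gene lists below for which no such value is given, at most 3 calls were kept in any of these fits. The fits that leave out a library put UBR7KO2 and UBR7KO1 in 1 block, as if of the same genotype. Their spread therefore includes differences between these knockout lines, and the kept counts do not measure spread between codes alone. The p-values of the main fit rest on the difference between the lines' changes, shared across genes. The labels do not say that the libraries came from separate cultures, so that difference may be technical. Culture, RNA preparation and library of a code cannot be told apart. As in all bulk RNA, fewer cells of a kind and less RNA per cell cannot be told apart.

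The 12 largest rises and the 12 largest falls differ in kind. Among the rises, which had to average at least 4 CPM and exceed 1.5-fold in each line, were 10 genes annotated as protein coding and 2 pseudogenes. HMGN5, a nucleosome-binding protein that loosens compact chromatin, stood at 71.2 and 60.4 CPM at the December code, against 13.9 and 12.6 CPM at the October code (log2 change 2.22, SE 0.14, limma adjusted p = 8.58e-11). TCEAL4, of the transcription elongation factor A-like family, stood at 264 and 232 CPM at the December code, against 59.3 and 63.7 CPM at the October code (log2 change 1.99, SE 0.12). Both groups of libraries lay wholly apart for each gene, as for 21.3% of all tested genes in this direction. SNRPD3, a core Sm protein of the spliceosomal snRNPs, rose by 1.76 (SE 0.13), PSIP1, a chromatin reader that tethers proteins to active genes, by 1.62 (SE 0.12) and GPATCH4, a nucleolar G-patch protein, by 1.57 on the log2 scale (SE 0.12). MNS1, a structural protein of sperm flagella and cilia, rose by 1.60 (SE 0.19).

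The rise of some genes rests on reads that related copies may share. RPL36A (ENSG00000241343, chromosome X, 100645812 to 100651105 as listed) had the largest rise, with 2754 and 1943 CPM at the December code, against 333 and 337 CPM at the October code (log2 change 2.79, SE 0.14, limma adjusted p = 9.84e-12). Its close paralog RPL36AL stood at 284 and 215 CPM at the December code, against 44.3 and 78.1 CPM at the October code (log2 change 2.05, SE 0.36, limma adjusted p = 0.0274). How reads were divided between such copies is not given in the sources used here, so both values are uncertain. The same holds for the pseudogenes HSP90AB2P (log2 change 1.99, SE 0.20) and HLA-H (log2 change 2.16, SE 0.20). Of the 12 largest rises, all 12 were kept without the UBR7KO1 library of the October code. NEFM lost its call without each of the other coded libraries in turn (limma adjusted p = 0.146 without the parental and 0.159 without the UBR7KO1 library of the December code, and 0.176 without the parental library of the October code), and MNS1 without the parental library of the December code (limma adjusted p = 0.0582).

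Of the 12 largest falls, 9 were short noncoding RNAs or copies of them, and all 12 were kept in each of the 4 fits that left out a coded library. RMRP, the RNA of the RNase MRP complex that cuts precursor rRNA (ENSG00000269900, chromosome 9, 35657748 to 35658015), stood at 0.677 and 0.745 CPM at the December code, against 23.6 and 29.4 CPM at the October code (log2 change −4.0, SE 0.20, limma adjusted p = 2.71e-12). RMRP, under 1 CPM in both libraries of the December code, was tested only through those of the October code, which favours a lower call. SCARNA6 and SCARNA5, guide RNAs that direct the modification of spliceosomal snRNAs in Cajal bodies, fell by 3.78 (SE 0.19) and 3.34 (SE 0.20) on the log2 scale. RN7SL3, a gene of the 7SL RNA of the signal recognition particle, stood at 21.0 and 22.9 CPM at the December code, against 279 and 273 CPM at the October code. The 7SL, 7SK and U2 copies RN7SL128P, RN7SL4P, RN7SKP255, RNU2-59P and RNU2-64P fell by between 3.40 and 4.12 on the log2 scale, but they resemble their parent genes so closely that the reads may belong to those. The other 3 of the 12 were the histone gene HIST1H2AD, the AP-1 gene FOSB and ANKRD30BL. ANKRD30BL stood at 1.35 and 0.902 CPM at the December code, against 14.8 and 20.3 CPM at the October code.

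Short noncoding RNAs mostly fell. Of 14 tested RNAs in the list of abundant small noncoding RNAs, 12 fell, 1 rose and 1 did not pass the test, under both scalings. Among the 12, RMRP, RN7SL1, RNU1-1 and TERC were under 1 CPM in both libraries of the December code. They were tested only through the libraries of the October code, which favours a lower call. The median log2 change of the 14 RNAs was −2.11 (−2.33 in parental and −1.92 in UBR7KO1 cells), against −0.16 for all tested genes. RN7SL2, which encodes 7SL RNA, stood at 1060.5 and 1303 CPM at the December code, against 6104 and 7254 CPM at the October code (log2 change −2.50, SE 0.14, limma adjusted p = 1.54e-11). RPPH1, the RNA of RNase P that trims precursor tRNA, stood at 17.4 and 24.4 CPM at the December code, against 112 and 131 CPM at the October code. Every library of the December code was below every library of the October code for these genes, as for 44.7% of all tested genes. RPPH1 is annotated as antisense, and with the strand setting of the counting not given, its reads cannot be told from those of an overlapping gene. The spliceosomal U4 gene RNU4-2 fell by 2.34 (SE 0.12) and the U12 gene RNU12 by 2.20 (SE 0.20), and SCARNA10 fell by 2.76 (SE 0.19) on the log2 scale. SCARNA7 went the other way, with 138 and 131 CPM at the December code, against 84.0 and 66.2 CPM at the October code (log2 change 0.84, SE 0.12). RN7SK, the 7SK RNA that holds the elongation factor P-TEFb inactive, stood at 16772 and 17456 CPM at the December code, against 23315 and 21345 CPM at the October code, and did not pass the test (limma adjusted p = 0.0644). The 12 lower calls numbered 9 without the parental and 10 without the UBR7KO1 library of the December code, and 10 without the parental and 12 without the UBR7KO1 library of the October code, and the 1 higher call was kept only without the parental library of the October code.

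The transcript classes annotated in the table cover more genes. All 21 tested snRNAs were lower at the December code under both scalings, with a median log2 change of −1.68 on CPM. On CPM, 40 of 49 snoRNAs were lower and 2 higher (median −1.30). In the class misc_RNA, which holds 7SL and 7SK copies, 31 of 36 were lower (median −1.17), and among miRNA precursors 7 of 8 (median −1.48). After TMM scaling 39 snoRNAs, 30 of the misc_RNA class and 7 miRNA precursors were lower. Any RNA of these classes under 1 CPM in both libraries of the December code was tested only through those of the October code. That favours a lower call. Long intergenic RNAs lay nearer to the background, with 130 of 400 lower and 17 higher on CPM (median −0.29), and 103 and 32 after TMM scaling. Protein-coding genes had 3591 of 12482 lower and 1648 higher on CPM (median −0.15). After TMM scaling 2411 of them were lower and 2725 higher, so their balance turned with the scaling. The summed level of the snRNAs was 259 and 184 CPM at the December code, against 1975 and 1365 CPM at the October code. That of the snoRNAs was 728 and 840.3 CPM at the December code, against 1629 and 1281 CPM at the October code.

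**Figure D2:**
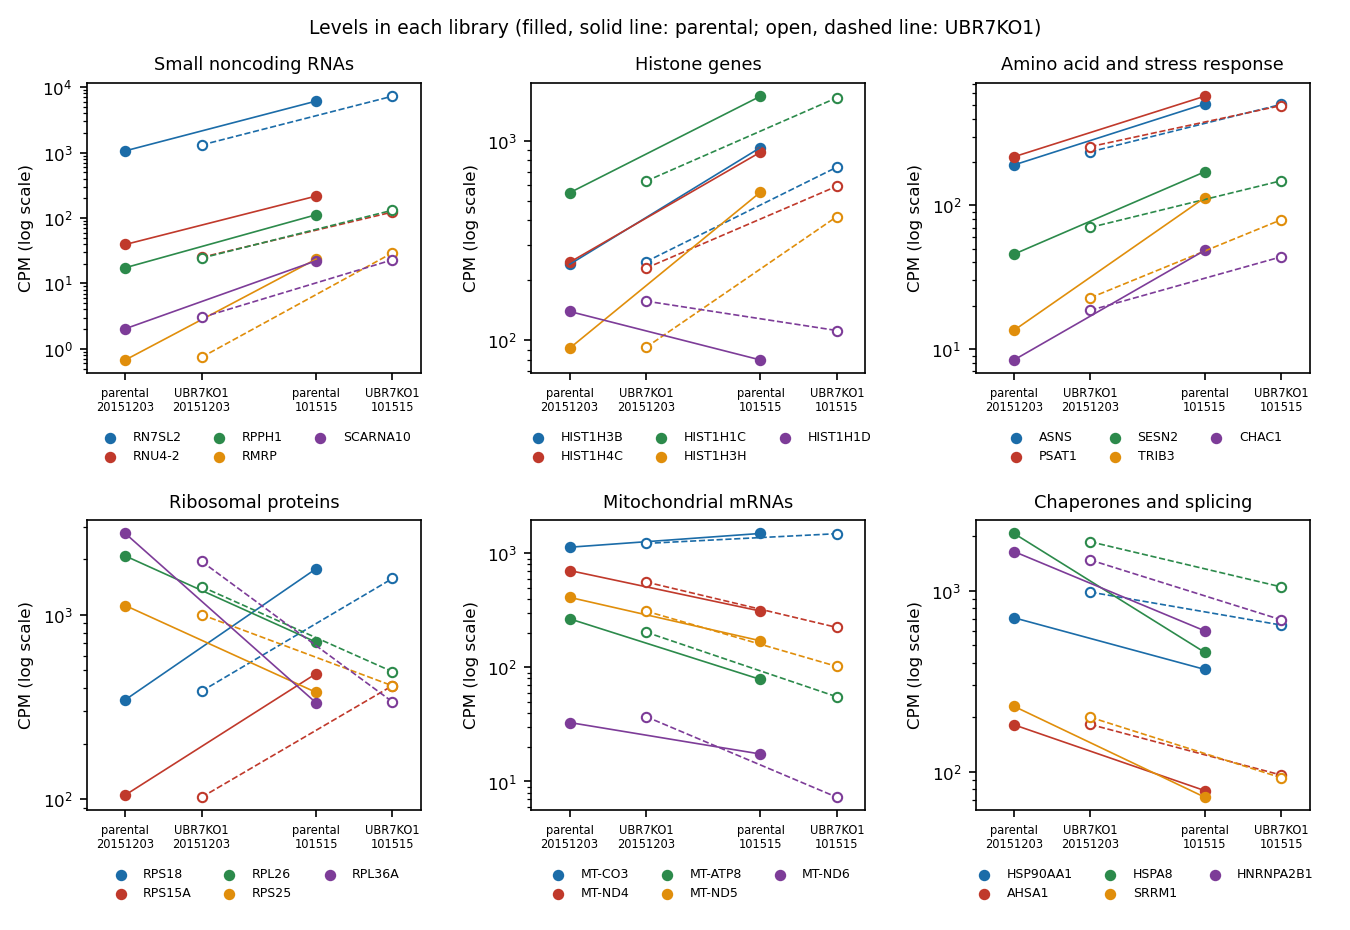
Levels in CPM, on a log axis, of 30 genes in 6 groups in each of the 4 libraries, with the December code on the left and the October code on the right of each panel. Filled points and solid lines are parental cells, open points and dashed lines UBR7KO1 cells. The lines of both genotypes slope the same way for each gene. RMRP stands at 0.677 and 0.745 CPM at the December code, against 23.6 and 29.4 CPM at the October code.

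Replication-dependent histone genes, whose mRNAs are made in S phase and end in a stem-loop rather than a poly(A) tail, mostly fell. Of 25 tested, 22 fell, 2 rose and 1 did not pass the test under both scalings, with a median log2 change of −1.06 (−1.09 in parental and −0.87 in UBR7KO1 cells). HIST1H3H, an H3 gene, stood at 91.4 and 92.2 CPM at the December code, against 555 and 418 CPM at the October code (log2 change −2.38, SE 0.13, limma adjusted p = 1.51e-11). The H4 gene HIST1H4B stood at 48.7 and 50.7 CPM at the December code, against 207 and 224 CPM at the October code. These genes encode core histones, and the 2 codes did not overlap for them, as for 44.7% of all tested genes in this direction. Among the linker histone H1 genes HIST1H1C fell by 1.5 (SE 0.13) and HIST1H1E by 0.82 (SE 0.14) on the log2 scale. The genes that rose were HIST1H1D, another H1 gene, by 0.64 (SE 0.12) and HIST2H2AC, an H2A gene, by 0.64 (SE 0.13). HIST1H2BD had 561 and 503 CPM at the December code, against 481 and 571 CPM at the October code (limma adjusted p = 0.921). Histone genes of 1 type are near-identical in their coding part, so single values may be shared between neighbours. The 22 lower calls numbered 10 without either library of the December code, 11 without the parental and 20 without the UBR7KO1 library of the October code.

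Genes of DNA synthesis were read beside the histones, since both serve S phase. Of 46 DNA replication genes, 17 were lower and 6 higher on CPM, and 9 were lower and 9 higher after TMM scaling, so the share was near the background. RPA3, a subunit of the single-strand binding protein, stood at 20.3 and 23.3 CPM at the December code, against 51.8 and 52.4 CPM at the October code (log2 change −1.22, SE 0.14). TK1, the S-phase thymidine kinase, fell by 1.05 (SE 0.13) and CDT1, a replication licensing factor, by 0.94 (SE 0.12). Without the parental library of the December code, 0 of these 23 calls were kept. Without the UBR7KO1 library of that code 2 of the lower and 0 of the higher calls were kept, without the parental library of the October code 3 and 0, and without the UBR7KO1 library of that code 4 and 1.

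Cytosolic ribosomal protein genes moved in large numbers and mostly down. Of 79 tested, 59 fell, 8 rose and 12 did not pass the test on CPM (52 lower and 9 higher after TMM scaling), with a median log2 change of −0.77. RPS18, of the small subunit, stood at 346 and 385 CPM at the December code, against 1775 and 1571 CPM at the October code (log2 change −2.19, SE 0.13, limma adjusted p = 5.27e-11). RPS15A stood at 105 and 102 CPM at the December code, against 479 and 412 CPM at the October code. In the large subunit RPL31 fell by 1.78 (SE 0.12) and RPL23A by 1.75 (SE 0.13). The members did not move as 1 block, since RPL36A, RPL26, RPS25 and RPL11 rose. RPL26 stood at 2080.2 and 1418 CPM at the December code, against 709 and 490.5 CPM at the October code (log2 change 1.54, SE 0.13), and RPS25 at 1121 and 999.9 CPM at the December code, against 379 and 411 CPM at the October code (log2 change 1.42, SE 0.13). These genes have many processed pseudogenes that can share reads. The 59 lower calls numbered 26 without the parental and 32 without the UBR7KO1 library of the December code, and 36 and 41 without those of the October code, and the 8 higher calls numbered 2, 4, 3 and 5 in the same order.

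Hosts of snoRNAs, transcripts whose introns yield snoRNAs and whose spliced RNA is short and little translated, were lower as well. Of 14 tested, 11 fell and 0 rose on CPM (9 and 0 after TMM scaling), with a median log2 change of −0.97. GAS5 stood at 116 and 146 CPM at the December code, against 569 and 380.1 CPM at the October code (log2 change −1.83, SE 0.19, limma adjusted p = 3.88e-05). SNHG15 fell by 1.68 (SE 0.17), SNHG7 by 1.52 (SE 0.15) and ZFAS1 by 1.49 (SE 0.18). For GAS5, SNHG15 and ZFAS1 the parental library of the October code was the highest of the 4. The 11 lower calls numbered 3 without the parental and 5 without the UBR7KO1 library of the December code, and 6 without the parental and 8 without the UBR7KO1 library of the October code.

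Nuclear genes of the respiratory chain leaned down while most of the mRNAs encoded in mitochondrial DNA rose. Of 52 nuclear genes, 30 fell and 6 rose on CPM (26 and 7 after TMM scaling), with a median log2 change of −0.47. COX8A, a subunit of cytochrome c oxidase, stood at 32.2 and 45.2 CPM at the December code, against 90.4 and 133 CPM at the October code (log2 change −1.5, SE 0.12). NDUFB2 and NDUFA4 fell by 1.49 (SE 0.15) and 1.43 (SE 0.12), and UQCRQ of complex III by 1.47 (SE 0.13), while UQCRB of the same complex rose by 1.29 (SE 0.12). Of 13 mitochondrial mRNAs, 10 rose under both scalings, with a median of 0.73, and MT-CO3 was lower on CPM only. MT-ATP8 stood at 267 and 204 CPM at the December code, against 78.4 and 55.2 CPM at the October code (log2 change 1.81, SE 0.12, limma adjusted p = 2.3e-10). MT-ND5, of complex I, stood at 411 and 312 CPM at the December code, against 171 and 102 CPM at the October code (log2 change 1.43, SE 0.13). The 2 codes lay apart for both genes, as for 21.3% of all tested genes in this direction. The level of MT-ND6, the complex I mRNA read from the other strand of mitochondrial DNA, was 32.9 and 37.0 CPM at the December code, against 17.4 and 7.27 CPM at the October code, with a change of 0.88 in parental and 2.20 in UBR7KO1 cells. Overlapping genes of both strands can share reads unless strand was used in counting, which is not given in the sources used here. The 30 lower nuclear calls numbered 4, 9, 7 and 11, and the 10 higher mitochondrial calls 4, 3, 4 and 7, without the parental and the UBR7KO1 library of the December code and the parental and the UBR7KO1 library of the October code.

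The shares of higher and lower calls differed with the span and the level of a gene. Of coding genes that span under 2000 bases on the genome, 49.0% were lower and 15.2% higher, whereas of those over 100000 bases 14.1% were lower and 15.2% higher. The median log2 change was −0.48 in the shortest and −0.01 in the longest of these classes. After TMM scaling 44.3% of the shortest were lower and 18.1% higher, and 7.64% of the longest were lower and 27.2% higher. By mean level, 27.2% of genes under 2 CPM were lower and 3.67% higher, and of those over 128 CPM 19.6% were lower and 35% higher. The lower share did not fall steadily with level, since it was 33.2% at 4 to 8 CPM and 36.8% at 8 to 16 CPM. After TMM scaling 20.8% of genes under 2 CPM were lower and 6.14% higher, and of those over 128 CPM 12.5% were lower and 47.3% higher. Across the 12482 coding genes the Spearman rho of change with span was 0.23, a description across genes that share libraries. Histone and ribosomal protein genes are short, and the part of span in their changes was not tested. The part of level in the shares of the gene lists was not tested either. Chromosome 19 had the lowest median of the nuclear chromosomes (−0.36), followed by 22 (−0.31) and 16 (−0.26), and chromosome 4 the highest (−0.02).

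**Figure D3:**
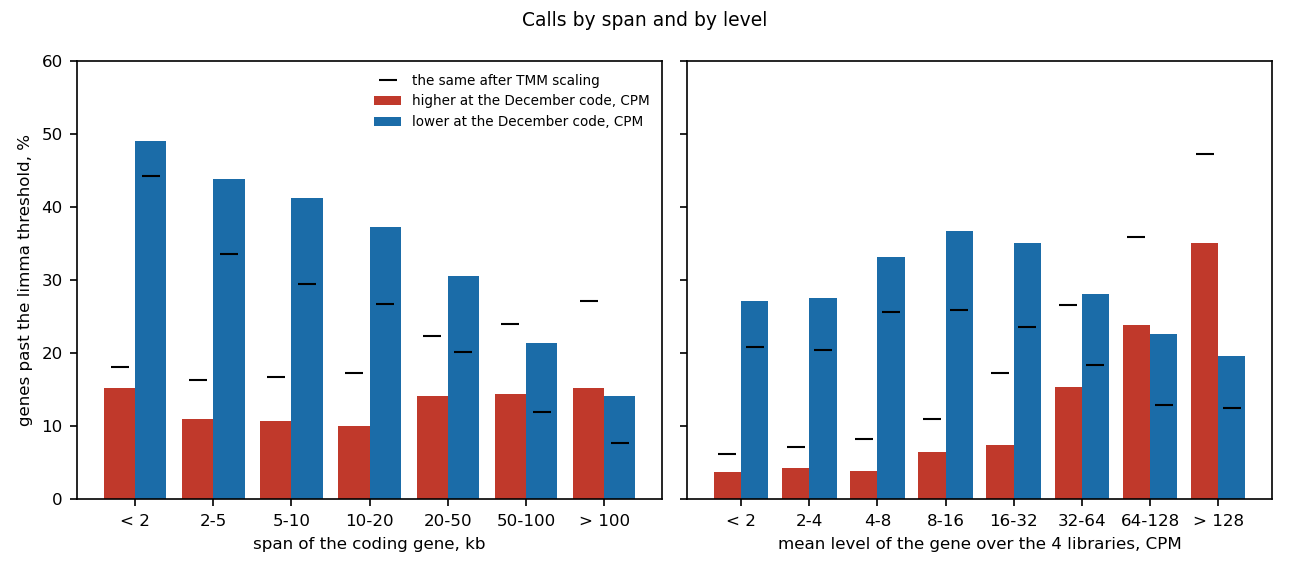
Bars give the share of genes past the limma threshold on CPM, higher (red) or lower (blue) at the December code, by genomic span of the coding gene in kb (left) and by mean CPM over the 4 libraries (right). Black marks give the same shares after TMM scaling. The lower share falls from 49.0% in the shortest to 14.1% in the longest genes, and the higher share is 35% in genes over 128 CPM.

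Zinc finger genes, a family of transcriptional regulators that is dense on chromosome 19, had 168 of 393 tested members lower and 14 higher on CPM (114 and 38 after TMM scaling). Their median log2 change was −0.35, with −0.52 in parental and −0.16 in UBR7KO1 cells. The median fall was greater in parental cells, a difference that 1 library per line and code cannot test, and members of the family share sequence that can divide reads. ZNF582 stood at 1.22 and 1.77 CPM at the December code, against 7.95 and 4.02 CPM at the October code, and ZNF416 at 1.49 and 1.73 CPM at the December code, against 6.82 and 5.11 CPM at the October code. The 168 lower calls numbered 1, 9, 3 and 33 without the parental and the UBR7KO1 library of the December code and the parental and the UBR7KO1 library of the October code.

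Genes of amino acid supply and the integrated stress response fell in part. Of 31 tested, 19 fell, 0 rose and 12 did not pass the test on CPM (16 and 0 after TMM scaling), with a median log2 change of −0.77 (−1.13 in parental and −0.58 in UBR7KO1 cells). Whether the lines differed could not be tested. The promoters of 2 members are shown because they hold the composite element that ATF4 binds, and they were chosen after the values were seen. The 250 bases before the RefSeq gene start (GRCh38.p14) are given 5′ to 3′ on the strand of the gene, with the letters TGATGNAA, read on either strand, in capitals. The CHAC1 promoter lies at chr15:40953221-40953470 on the plus strand and holds the element read from the opposite strand, beginning 209 bases before the start. The ASNS promoter lies at chr7:97872409-97872658 on the minus strand and holds it beginning 68 bases before the start.
CHAC1: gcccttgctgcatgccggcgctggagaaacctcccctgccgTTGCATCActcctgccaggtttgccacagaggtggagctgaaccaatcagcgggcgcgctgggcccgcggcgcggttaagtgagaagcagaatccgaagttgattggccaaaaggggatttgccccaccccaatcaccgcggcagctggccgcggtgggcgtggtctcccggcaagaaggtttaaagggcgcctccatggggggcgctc
ASNS: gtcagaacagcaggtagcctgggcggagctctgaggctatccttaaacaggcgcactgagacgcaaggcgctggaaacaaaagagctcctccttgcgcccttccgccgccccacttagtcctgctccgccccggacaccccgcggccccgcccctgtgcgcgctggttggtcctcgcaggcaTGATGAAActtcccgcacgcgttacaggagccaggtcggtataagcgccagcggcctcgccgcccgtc

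The letters TGATGNAA stand within the 250 bases before to 50 bases after the start of 5 of 25 stress response genes with a RefSeq promoter (20.0%) and of 3 of the 16 that were called lower (18.8%). They stand in 172 of 10657 tested genes with a promoter (1.61%) and in 1003 of 27305 RefSeq promoters (3.67%). Of all genes called lower that have a promoter, 49 of 3060 hold them (1.60%), like the tested genes. The list was drawn up from known genes of this response, which favours such matches. Matches on both strands were counted, and the letters may overlap other elements. A match is a description of the sequence and not of binding.

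CHAC1, which breaks down glutathione, stood at 8.40 and 18.6 CPM at the December code, against 48.6 and 43.8 CPM at the October code (log2 change −1.80, SE 0.27, limma adjusted p = 0.00181). ASNS, which makes asparagine, stood at 191 and 235 CPM at the December code, against 507 and 503 CPM at the October code (log2 change −1.25, SE 0.13, limma adjusted p = 1.32e-07). TRIB3, a pseudokinase that feeds back on ATF4, stood at 13.5 and 22.7 CPM at the December code, against 113 and 79.3 CPM at the October code (log2 change −2.37, SE 0.33, limma adjusted p = 0.00816). For each of the 3 genes the parental library of the December code was the lowest and the codes did not overlap, as for 44.7% of all tested genes in this direction. Other members fell as well. SESN2, a leucine sensor that restrains mTORC1, fell by 1.47 (SE 0.16) and CEBPB, a transcription factor, by 1.72 (SE 0.18). The serine synthesis enzymes PSAT1 and PSPH fell by 1.17 (SE 0.13) and 1.07 (SE 0.20), and the amino acid transporter subunits SLC3A2 and SLC7A5 by 1.14 (SE 0.14) and 1.00 (SE 0.12). ATF4 itself had 338 and 342 CPM at the December code, against 397 and 523 CPM at the October code, and was called on CPM only (limma adjusted p = 0.0126 on CPM and 0.16 after TMM scaling). The transporter SLC7A11 had 74.0 and 105 CPM at the December code, against 237 and 128 CPM at the October code and did not pass the test (limma adjusted p = 0.298).

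Stress response calls were lost when single libraries were left out, as were most calls over all tested genes. Of the 19 lower calls, 3 were kept without the parental and 11 without the UBR7KO1 library of the December code, and 5 without the parental and 11 without the UBR7KO1 library of the October code. The aminoacyl-tRNA synthetases, several of which are ATF4 targets, had 8 of 20 lower and 1 higher on CPM (6 and 2 after TMM scaling). Their called share was 45%, near the 41.8% of all tested genes, with 40% lower against 29.4%. MARS, which charges methionine tRNA, fell by 0.75 (SE 0.14) and IARS, which charges isoleucine tRNA, by 0.66 (SE 0.13). In the 4 fits that left out a library the 8 lower calls numbered 0, except for 2 without the UBR7KO1 library of the October code. Targets of p53, some of which are also raised by amino acid stress, had 12 of 27 lower and 0 higher on CPM (9 and 2 after TMM scaling). Their called share was 44.4%, near the 41.8% of all tested genes, but all of it was lower, against 29.4% lower over all tested genes. BBC3, an inducer of apoptosis, was among the 12 with 6.95 and 8.40 CPM at the December code, against 18.1 and 16.7 CPM at the October code. Those 12 calls numbered 0 and 1 without the parental and the UBR7KO1 library of the December code, and 1 and 6 without those of the October code.

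Immediate early genes were split. Of 35 tested, 8 were lower and 4 higher on CPM (7 and 6 after TMM scaling), a share near the background, with a median log2 change of −0.13. FOSB, an AP-1 subunit, stood at 2.57 and 2.90 CPM at the December code, against 40.5 and 15.8 CPM at the October code (log2 change −2.82, SE 0.30, limma adjusted p = 0.000121). IER2 and JUND fell by 1.71 (SE 0.15) and 1.37 (SE 0.14). The growth factor dependent ETS genes ETV4 and ETV5 were higher, with 2.12 and 2.86 CPM of ETV5 at the December code, against 1.5 and 0.796 CPM at the October code. FOS and EGR1 had large changes that differed between the lines and did not pass the test (limma adjusted p = 0.0718 and 0.0654). The 8 lower calls numbered 3 without each of the parental and UBR7KO1 libraries of the December code and the parental library of the October code, and 4 without the UBR7KO1 library of the October code, and 0 of the 4 higher calls were kept in any of these fits.

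The genes whose change differed most between the lines included stress and early response genes. FOS stood at 3.34 and 4.90 CPM at the December code, against 51.9 and 18.7 CPM at the October code, a change of −3.61 in parental and −1.74 in UBR7KO1 cells. ATF3, a stress-induced transcription factor, stood at 53 and 89.3 CPM at the December code, against 151 and 74.0 CPM at the October code, a change of −1.49 in parental and 0.27 in UBR7KO1 cells. INHBE, a secreted protein of the activin family, stood at 1.72 and 6.28 CPM at the December code, against 18.6 and 14.0 CPM at the October code. In each of these the parental library of the October code was the highest of the 4. SNHG1, TXNIP, a glucose-responsive arrestin, and its relative ARRDC4 also had their highest level in that library, with 101 and 86.9 CPM of SNHG1 at the December code, against 378 and 111 CPM at the October code. HSPA1B, a heat-inducible HSP70 gene with a near-identical neighbour, had its lowest level in that library instead, with 57.2 and 63.7 CPM at the December code, against 23.3 and 74.1 CPM at the October code. Only 4 of 14059 genes moved past 1.5-fold in opposite directions in the 2 lines. With 1 library per line and code a difference between the lines' changes cannot be tested, since that difference is the residual of the fit.

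**Figure D4:**
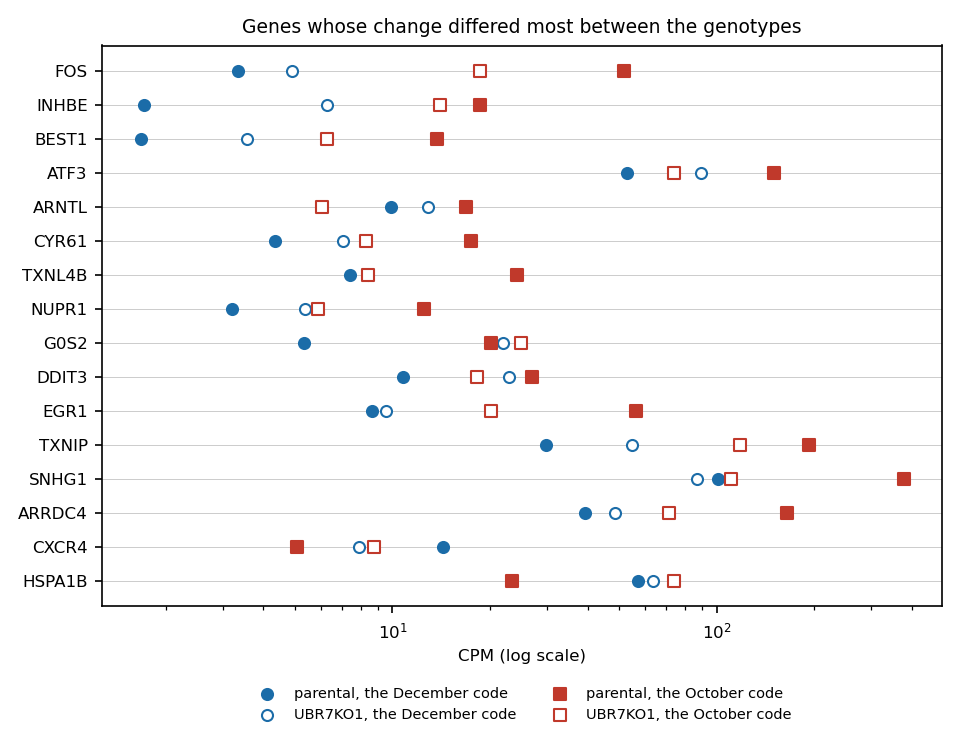
Levels in CPM, on a log axis, of the 16 genes whose change between the date codes differed most between parental (filled) and UBR7KO1 (open) cells, at the December code (circles) and the October code (squares). In 13 of the 16 the parental library of the October code is the highest of the 4, as for SNHG1 at 378 CPM against 111 CPM in the UBR7KO1 library of that code.

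Chaperones of the heat shock response rose in part. Of 21 tested, 11 rose and 1 fell on CPM (13 and 1 after TMM scaling), with a median log2 change of 0.52. The higher share was 52.4%, against 12.3% of all tested genes and 35% of those over 128 CPM. AHSA1, which stimulates the ATPase of HSP90, stood at 182 and 182 CPM at the December code, against 78.6 and 95.8 CPM at the October code (log2 change 1.06, SE 0.12, limma adjusted p = 7.8e-07). The HSP90 genes HSP90AA1 and HSP90AB1 rose by 0.78 (SE 0.13) and 0.75 (SE 0.13), and their co-chaperone STIP1 by 0.73 (SE 0.12). The gene that fell was HSF1, the transcription factor of the response, with 35.6 and 33.0 CPM at the December code, against 79.8 and 67.7 CPM at the October code (log2 change −1.08, SE 0.12). HSPA8, the constitutive HSP70, stood at 2068 and 1860.4 CPM at the December code, against 456 and 1048 CPM at the October code, and passed the test after TMM scaling but not on CPM (limma adjusted p = 0.0266 and 0.0765). The small heat shock gene HSPB1 and the inducible co-chaperone DNAJB1 did not pass the test (limma adjusted p = 0.651 and 0.642). The 11 higher calls numbered 0 and 1 without the parental and the UBR7KO1 library of the December code, and 1 and 5 without those of the October code. The lower call of HSF1 was kept in 3 of these fits and lost without the parental library of the December code.

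Splicing factors rose in part. Of 34 tested, 18 rose and 3 fell on CPM (24 and 1 after TMM scaling), with a median log2 change of 0.39. SRRM1, a nuclear matrix coactivator of splicing, stood at 229.6 and 199.8 CPM at the December code, against 72.2 and 92.6 CPM at the October code (log2 change 1.38, SE 0.13, limma adjusted p = 1.55e-07). HNRNPA2B1 stood at 1643 and 1475 CPM at the December code, against 599 and 689.5 CPM at the October code (log2 change 1.28, SE 0.13). The codes lay apart for both genes, as for 21.3% of all tested genes in this direction. RBM25 rose by 1.21 (SE 0.12) and SRSF4 by 1.13 (SE 0.14), while SRSF6 fell by 0.60 (SE 0.13). SRSF2 and SRSF7 were lower on CPM and did not pass after TMM scaling (limma adjusted p = 0.136 and 0.0736). The 18 higher calls numbered 3 and 5 without the parental and the UBR7KO1 library of the December code, and 6 and 8 without those of the October code.

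**Figure D5:**
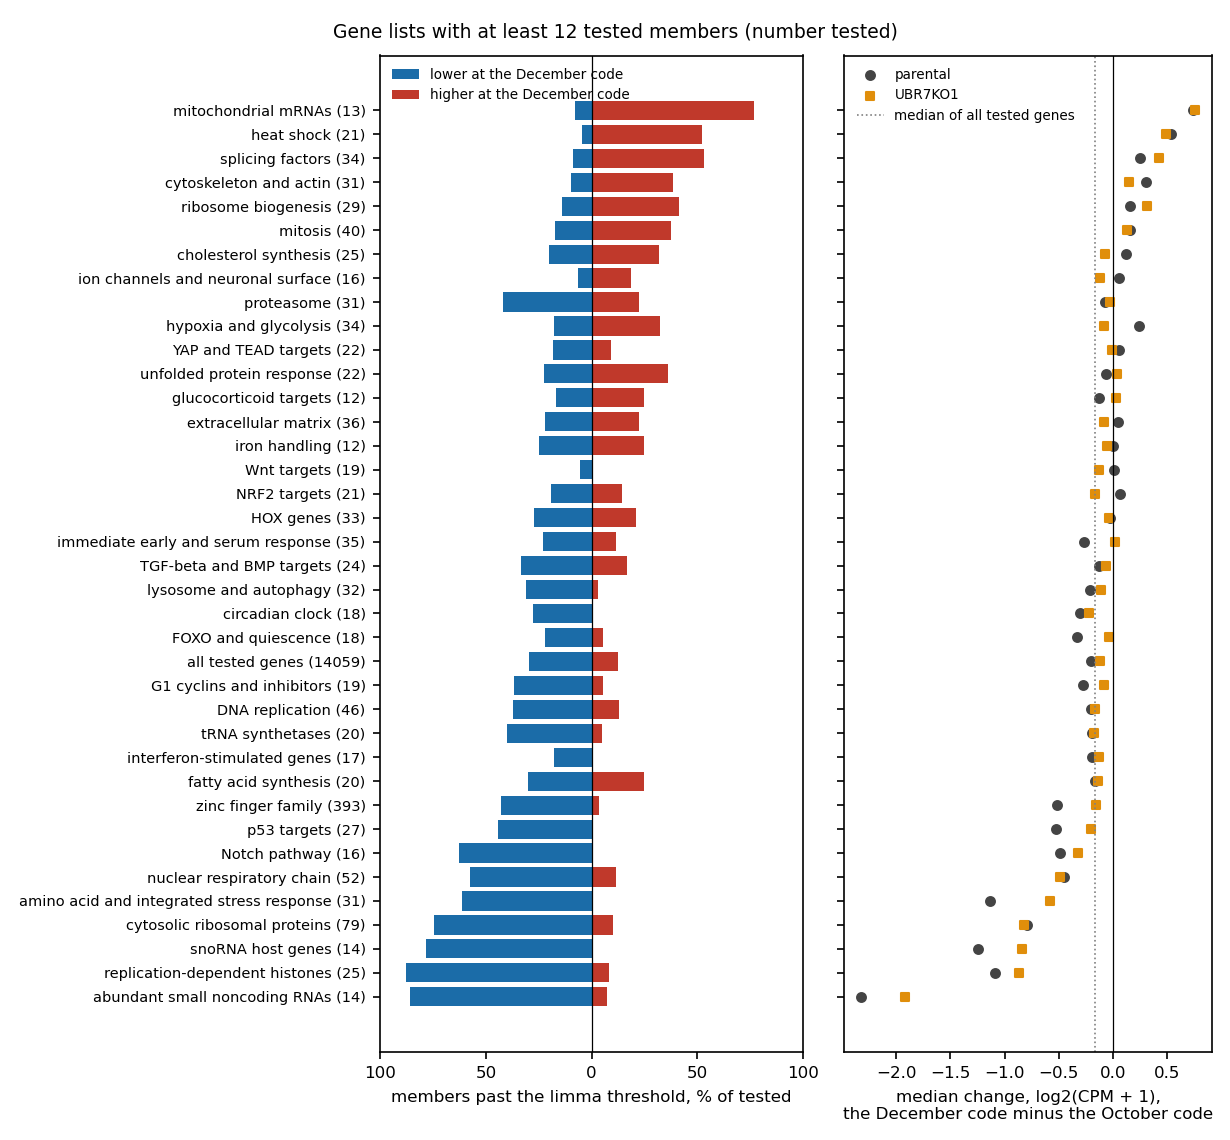
The 38 rows are the gene lists with at least 12 tested members and all tested genes. On the left, bars give the percent of tested members past the limma threshold on CPM, lower (blue) and higher (red) at the December code. On the right, points give the median log2(CPM + 1) change in parental (black) and UBR7KO1 (orange) cells, with the median of all tested genes (−0.16) dotted. The small noncoding RNAs and the mitochondrial mRNAs form the 2 ends, with medians of −2.11 and 0.73 over both lines.

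Ribosome biogenesis factors leaned up, unlike the ribosomal protein genes they help to assemble. Of 29 tested, 12 rose and 4 fell on CPM (15 and 3 after TMM scaling), with a median log2 change of 0.20. The higher share was 41.4%, against 12.3% of all tested genes and 35% of those over 128 CPM. The part of level in this share was not tested. NCL, the nucleolar protein nucleolin, stood at 2093 and 1854 CPM at the December code, against 817 and 779 CPM at the October code (log2 change 1.30, SE 0.13, limma adjusted p = 1.15e-07). NOLC1, a nucleolar and Cajal body phosphoprotein, rose by 0.94 (SE 0.12) and BOP1, of the large subunit pathway, by 0.86 (SE 0.16). FBL, the rRNA methyltransferase, and NHP2, of the H/ACA snoRNPs, fell by 0.51 (SE 0.12) and 0.77 (SE 0.12). MYC, a driver of ribosome production, stood at 125 and 81.8 CPM at the December code, against 165 and 137 CPM at the October code (log2 change −0.56, SE 0.12). The 12 higher calls numbered 1 without each library of the December code, and 3 and 4 without the parental and the UBR7KO1 library of the October code, and 0 of the 4 lower calls were kept in any of these fits.

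Mitotic genes were raised in part. Of 40 tested, 15 rose and 7 fell on CPM (20 and 5 after TMM scaling), with a median log2 change of 0.15. The higher share was 37.5%, against 12.3% of all tested genes and 35% of those over 128 CPM. The part of level in this share was not tested. CENPE, the kinetochore kinesin, stood at 202 and 251 CPM at the December code, against 115 and 119 CPM at the October code (log2 change 0.93, SE 0.12). CENPF rose by 0.82 (SE 0.13) and ANLN, a scaffold of the cytokinetic ring, by 0.87 (SE 0.12). CKS2, a partner of cyclin-dependent kinases, and BIRC5, which encodes survivin, fell by 0.85 (SE 0.12) and 0.51 (SE 0.12), as did CCNB1, which encodes cyclin B1, by 0.55 (SE 0.12). Members of the list moved in both directions. Of the 15 higher calls, 6 were kept without the UBR7KO1 library of the October code and 0 without each of the other coded libraries.

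Genes of the cytoskeleton had 12 of 31 members higher and 3 lower on CPM (17 and 1 after TMM scaling). The higher share was 38.7%, against 12.3% of all tested genes and 35% of those over 128 CPM. The part of level in this share was not tested. PFN1, which delivers actin monomers, stood at 665 and 549 CPM at the December code, against 242 and 281 CPM at the October code (log2 change 1.21, SE 0.13, limma adjusted p = 7.34e-07). TPM4, a tropomyosin, rose by 0.94 (SE 0.12) and MYH10, a nonmuscle myosin, by 0.75 (SE 0.12). The 12 higher calls numbered 0 and 1 without the parental and the UBR7KO1 library of the December code, and 2 and 5 without those of the October code.

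Metabolic lists were mixed. Of 25 cholesterol synthesis genes, 8 rose and 5 fell on CPM (9 and 1 after TMM scaling), with a median log2 change of 0.03. HMGCS1, an early enzyme of the pathway, stood at 99.4 and 115 CPM at the December code, against 37.1 and 68.2 CPM at the October code (log2 change 1.07, SE 0.14), and INSIG1, the sterol-sensing retention protein, at 218 and 262 CPM at the December code, against 89.1 and 197 CPM at the October code. The parental library of the October code was the lowest of the 4 for both, and for INSIG1 the UBR7KO1 library of that code lay close to those of the December code. Of 34 hypoxia and glycolysis genes, 11 rose and 6 fell on CPM (15 and 4 after TMM scaling). HK1, a hexokinase, rose by 1.07 (SE 0.15), PKM, pyruvate kinase, by 0.83 (SE 0.14) and SLC2A3, a glucose transporter, by 0.98 (SE 0.15). The hypoxia targets VEGFA and DDIT4 fell by 0.74 (SE 0.13) and 0.82 (SE 0.12), and DDIT4 is also raised by ATF4. Of the 8 higher cholesterol calls 0, 3, 0 and 1, and of the 11 higher hypoxia and glycolysis calls 0, 1, 0 and 8, were kept without the parental and the UBR7KO1 library of the December code and the parental and the UBR7KO1 library of the October code.

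Genes of the unfolded protein response moved in both directions. Of 22 tested, 8 rose and 5 fell on CPM (9 and 5 after TMM scaling). The shares were 36.4% higher and 22.7% lower, against 12.3% and 29.4% of all tested genes. Among tested genes over 128 CPM they were 35% and 19.6%. The ER chaperones CALR and HSPA5 rose by 1.04 (SE 0.13) and 0.90 (SE 0.12), with 183 and 285 CPM of HSPA5 at the December code, against 109 and 137 CPM at the October code. XBP1, a transcription factor of the response, and DNAJB9, a co-chaperone, fell by 1.02 (SE 0.20) and 0.92 (SE 0.17). Of the 8 higher and 5 lower calls, 1 and 2 were kept without the UBR7KO1 library of the October code, and 0 of either without each of the other coded libraries.

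The identity of the cells was read from marker lists. Neural and adrenal genes that mark HEK293 cells had 8 of 10 members tested, with a summed level of 1010.5 and 1192 CPM at the December code, against 756 and 1178 CPM at the October code. Among them 5 rose and 1, ENO2, was lower on CPM only. NEFM, a neurofilament subunit, stood at 206 and 211 CPM at the December code, against 62.3 and 76.3 CPM at the October code (log2 change 1.58, SE 0.12, limma adjusted p = 2.35e-09), and NES, the progenitor filament nestin, at 16.6 and 36.6 CPM at the December code, against 7.84 and 20.5 CPM at the October code. Of the 5 higher calls 1 was kept without the UBR7KO1 library of the October code and 0 without each of the other coded libraries. Kidney lineage markers had 4 of 10 members tested, with sums of 14.8 and 16.2 CPM at the December code, against 15.2 and 19.4 CPM at the October code. Among them SIX2 was lower on CPM only, and LHX1 was higher after TMM scaling only (limma adjusted p = 0.0219). Fibroblast markers had 4 of 8 tested, with sums of 31.3 and 39.9 CPM at the December code, against 33.1 and 42.8 CPM at the October code, and 0 passed the limma test (0 also after TMM scaling, and 0 at an unadjusted p under 0.05). None of the 8 keratinocyte and 6 hepatocyte markers was among the genes listed, which all reach 1.01 CPM in at least 2 of the 6 RNA libraries.

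The 2 RNA libraries without a code were set beside the calls as values only. Of the 1732 genes higher at the December code, 407 had both uncoded libraries between the codes, 240 beyond the level of the December code, 217 beyond that of the October code and 868 in mixed positions. Of the 4138 lower genes, 859 had both between, 1046 beyond the December code, 291 beyond the October code and 1942 mixed. Their mean was nearer to the December code for 48.4% of the higher and 66.7% of the lower calls. RN7SL2 stood at 1444 and 1649 CPM there, near the December code, whereas RPPH1 at 114 and 176 CPM was near the October code. ASNS stood at 75.9 and 94.0 CPM, below both codes, and HSPA8 at 3815 and 3582 CPM, above both. The 2 codes did not overlap in 1665 of the 1732 higher and 4014 of the 4138 lower calls (12.3% and 29.4% of all tested genes were called), which the test itself favours. Over all 14059 tested genes, called or not, both libraries of the December code lay above both of the October code in 2999 genes (21.3%) and below them in 6280 genes (44.7%).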

How the data were processed

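RNA-seq was read in 4 libraries of HEK293T cells, from total RNA taken with a column kit and made into libraries with an Illumina TruSeq protocol, per the labels' protocols. The authors deposited CPM per gene for 6 RNA libraries. TopHat2 2.1.0, HTSeq 0.6.1 and edgeR are named in the submitters' processing notes, and the strand setting of the counting is not given in the sources used here. The notes name hg19 and hg38 as human builds, and of 13372 genes matched by symbol to RefSeq GRCh38.p14, 2163 (16.2%) overlapped, so positions are given as listed. The listed values are whole multiples of 1 read in 100% of cases (tolerance 0.001 reads), which gave the read totals.

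The main test was limma 3.58.1 (R 4.3.3) with trend and robust settings on log2(CPM + 1), with genotype as the replicate block and Benjamini-Hochberg adjustment over 14059 genes above 1 CPM in at least 2 of 4 libraries. The pairing comes from the cell line, parental or UBR7KO1. A fold change on this scale understates low genes. Alternatives were TMM and RLE scaling, edgeR 4.0.16 and DESeq2 1.42.0 on recovered reads, other pseudocounts and filters, no block, and each library left out. The reads recovered from the deposited CPM gave 2883 higher and 2885 lower genes with edgeR's quasi-likelihood test. The fits were tested on simulated data. There limma recovered 37 of 70 genes changed by 0.585 on the log2 scale and 53 of 59 changed by 1. DESeq2 recovered 19 and 45 of these. The false calls numbered 8 with limma and 0 with DESeq2. All depth limits cover counting error only. The 3-read floor lies between 0.109 and 0.135 CPM in the 4 libraries.

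The rule for named genes took UBR7, then 12 called genes that rose most and 12 that fell most, of those averaging at least 4 CPM and past 1.5-fold in each genotype, the 5 called genes with the highest mean CPM past 1.5-fold, and up to 4 called members with the largest change per list (its most expressed member where none was called). Any other gene named was picked with its values in view. The comparison and the gene lists were chosen with earlier results of these data known. Promoters were taken from RefSeq (75.8% of tested genes matched), so a check of base composition was void and not made.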

Additional observations from a re-analysis of the deposited data

How the results depend on the processing

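The 1732 higher calls numbered 2883 with edgeR's quasi-likelihood test, 2856 with TMM and 2935 with RLE scaling, 943 with all 6 RNA libraries in the fit, and between 55 and 356 when 1 coded library was left out. The 4138 lower calls numbered 1525 with DESeq2, 2751 with RLE scaling, 2430 with all 6 libraries, and between 165 and 929 when 1 coded library was left out, with the lowest counts in both directions without the parental library of the December code. Without the replicate block, that is without pairing by genotype, 925 genes were higher and 2408 lower. Other pseudocounts and filters, and small RNA classes left out (an alternative added after seeing the data), kept both counts within 1.5 times. For UBR7 the log2 change of 0.07 turned to −0.30 without the parental library of the December code, was 0.44 without the UBR7KO1 library of that code and was −0.14 without the UBR7KO1 library of the October code. In these fits UBR7KO2 shares a block with UBR7KO1, so the values are not changes of UBR7 within a line. For the 177 named genes, 1977 of 2095 values under settings other than leaving out a library kept direction and call and 118 lost the call, and of 708 values with a library left out 310 kept both, 396 lost the call and 2 reversed. The cause was not tested. The likeness of the genotypes stayed between a Pearson r of 0.793 and 0.840 in its alternatives.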

Other observations

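Several further lists were read in the same 4 libraries. Of 16 Notch pathway genes, 10 were lower and 0 higher on CPM at the December code (6 and 1 after TMM scaling), with a median log2 change of −0.46. HES6, a bHLH factor of neural progenitors, stood at 4.69 and 4.12 CPM at the December code, against 13.3 and 14.3 CPM at the October code (log2 change −1.46, SE 0.19, limma adjusted p = 4.04e-06). HES5 and HES1, direct targets of Notch, fell by 1.24 (SE 0.20) and 0.80 (SE 0.13), and the ligand genes DLL3 and JAG2 by 1.07 (SE 0.21) and 0.76 (SE 0.15). HES5 stood at 0.271 and 0.275 CPM at the December code, against 1.82 and 2.20 CPM at the October code. It was therefore tested only through the libraries of the October code, which favours a lower call. The receptors NOTCH1 and NOTCH2 did not pass the limma test on CPM (adjusted p = 0.122 and 0.108), and NOTCH2 was higher after TMM scaling. Of the 10 lower calls 2 were kept without the UBR7KO1 library of the October code and 0 without each of the other coded libraries.

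Proteasome subunits split, with 13 of 31 lower and 7 higher on CPM and 6 lower and 10 higher after TMM scaling, so that the balance turned with the scaling. PSMA7, of the core ring, stood at 56.7 and 71.1 CPM at the December code, against 133 and 148 CPM at the October code (log2 change −1.13, SE 0.12), while PSMC1, of the regulatory cap, rose by 0.78 (SE 0.12). Lysosome and autophagy genes had 10 of 32 lower and 1 higher on CPM (7 and 2 after TMM scaling), a lower share of 31.2% that is near the 29.4% of all tested genes. The gene that rose was CTSL, a lysosomal protease, with 90.5 and 109.5 CPM at the December code, against 32.9 and 56.9 CPM at the October code (log2 change 1.18, SE 0.13). Extracellular matrix genes had 8 higher and 8 lower of 36, or 22.2% each, against 12.3% higher and 29.4% lower over all tested genes. TIMP1, an inhibitor of metalloproteinases, was higher by 0.92 (SE 0.12) and the proteoglycan gene AGRN lower by 0.90 (SE 0.13). NEAT1, the scaffold RNA of paraspeckles, stood at 82.8 and 107 CPM at the December code, against 145 and 155 CPM at the October code (log2 change −0.67, SE 0.12). AJUBA, a LIM protein of the Hippo pathway, fell by 1.5 (SE 0.16). Of these calls without the parental and the UBR7KO1 library of the December code and the parental and the UBR7KO1 library of the October code, the 13 lower proteasome calls numbered 0, 3, 1 and 3 and the 7 higher ones 0, 0, 0 and 1, the 10 lower lysosome calls 0 in all 4 and the higher one 0, 0, 0 and 1, and the 8 lower matrix calls 0, 0, 1 and 1 and the 8 higher ones 0 in all 4.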
